A study of Mus musculus with 5 samples.

Results

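The peak lists of histone H2A ubiquitinated at lysine 119 (H2AK119Ub) were compared between progenitors transduced with PML-RARa and progenitors transduced with HOXA9. All 1772 listed PML-RARa peaks and all 620 listed HOXA9 peaks were used, 2392 of the 5132 peaks listed for 4 libraries of chromatin immunoprecipitation and sequencing (ChIP-seq). The cells were lineage-negative haematopoietic progenitors from the bone marrow of C57BL/6 mice of the genotype R26CreERT2;Ring1a-/-;Ring1bf/f;Cdkn2a-/-, enriched with a progenitor kit, transduced and held in liquid culture. Both groups therefore carried the Ring1a and Cdkn2a deletions, floxed Ring1b alleles and a CreERT2 transgene. CreERT2 is a Cre recombinase that acts after tamoxifen; whether tamoxifen was given is not stated in the labels, nor is the number of mice or their age. The non-transduced and MLL-AF9 libraries, from cells of the same genotype, served here only to show where else a peak was listed. Each group had 1 library and no replicate, so no test between the groups was possible, every difference is one between single libraries, and the depth of both is unknown.

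H2AK119Ub is the product of Polycomb repressive complex 1 (PRC1), whose ligase subunits are RING1A and RING1B, and it lies over broad domains at silenced developmental genes such as the Hox clusters. HOXA9 is a homeobox transcription factor that keeps progenitors immature and is highly expressed in many acute myeloid leukaemias. PML-RARa joins PML to the retinoic acid receptor alpha, causes acute promyelocytic leukaemia and represses retinoic acid targets. The comparison asks how the distribution of the PRC1 mark differed between progenitors held by a homeobox factor and by a fusion receptor.

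The HOXA9 list was largely contained in the PML-RARa list, and most of the PML-RARa list had no counterpart in HOXA9. Of the 620 HOXA9 peaks, 498 (80.3%, exact 95% interval 77.0 to 83.4) shared at least 1 bp with a PML-RARa peak. In the other direction 497 of the 1772 PML-RARa peaks (28.0%, interval 26.0 to 30.2) met a HOXA9 peak, which left 1275 PML-RARa and 122 HOXA9 peaks without a partner. By length, 9.72 Mb lay in peaks of both libraries, which was 72.6% of the 13.4 Mb covered in HOXA9 and 27.2% of the 35.7 Mb covered in PML-RARa. Peaks without a partner made up 22.6 Mb of the PML-RARa list and 1.99 Mb of the HOXA9 list. These exact binomial intervals cover only counting error, as if each peak were independent.

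These shares depend on the length of each list, and the lists differed in length and in completeness. The numbers in the peak names ran to 2124 in PML-RARa, of which 83.4% were listed, and to 928 in HOXA9, of which 66.8% were listed. The lowest score was 700 in both lists; a score is the authors' value for a peak, is of unstated scale, and is used here only within its own list. The part that sequencing depth and yield of the immunoprecipitation had in the shorter HOXA9 list was not tested.

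Between lists of equal length, fewer than 1 in 2 of the peaks were shared. When the 620 PML-RARa peaks with the highest scores (1111 or more) were set against the 620 HOXA9 peaks, 279 of them (45.0%, interval 41.0 to 49.0) met a HOXA9 peak. Of the HOXA9 peaks 284 (45.8%, interval 41.8 to 49.8) met one of these 620. A further 214 HOXA9 peaks (34.5%) met only a PML-RARa peak of lower score. These regions were marked in both libraries, but in the lower part of the PML-RARa list. Of the 1152 lower PML-RARa peaks themselves, 218 met a HOXA9 peak (18.9%, interval 16.7 to 21.3). Of the 341 best PML-RARa peaks without a HOXA9 partner, 125 were listed in both the non-transduced and the MLL-AF9 library and 99 in neither. Among all 1275 PML-RARa peaks without a HOXA9 partner, 301 were in both and 580 in neither, so the balance was the reverse.

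Peaks with high scores and wide peaks were matched most often. Among the 443 PML-RARa peaks with the highest scores (1207 to 2763), 49.2% met a HOXA9 peak (interval 44.5 to 54.0). Among the 443 with the lowest scores (700 to 856) the share was 14.4% (interval 11.3 to 18.1). In HOXA9, 91.0% of the best 155 peaks (interval 85.3 to 94.97) and 70.3% of the lowest 155 (interval 62.5 to 77.4) met a PML-RARa peak. These intervals did not overlap between the ends of either list. Peaks with high scores were also wider. The median width was 20.7 kb in the best and 12.85 kb in the lowest of these PML-RARa groups, and 23.1 and 14.0 kb in HOXA9. Whether matching followed score apart from width was not tested.

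Width followed the same order in both lists. Of the 86 PML-RARa peaks over 50 kb, 44 met a HOXA9 peak (51.2%, interval 40.1 to 62.1), against 9 of 126 under 5 kb (7.14%, interval 3.32 to 13.1). Of the 35 HOXA9 peaks over 50 kb, 33 met a PML-RARa peak, against 16 of 29 under 5 kb. A wide peak also has more length on which to meet another. The median PML-RARa width was 21.4 kb for matched and 14.0 kb for unmatched peaks. In HOXA9 the medians were 18.4 and 13.6 kb.

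**Figure D1:**
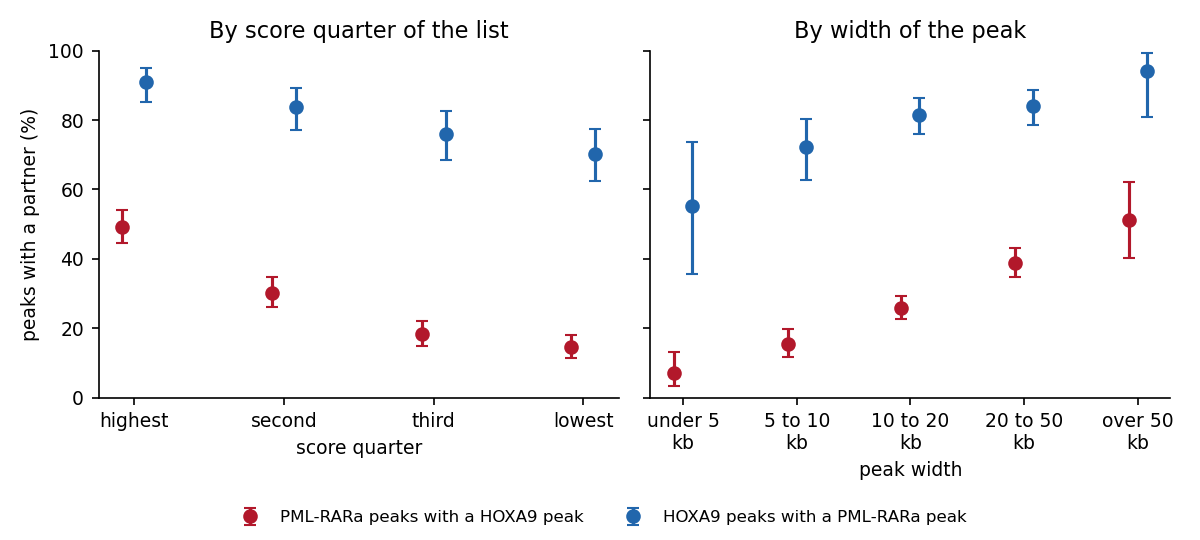
Share of peaks with a partner in the other list (vertical axis, %), by score group within the list (left) and by peak width (right). Red points are PML-RARa peaks that met a HOXA9 peak, blue points HOXA9 peaks that met a PML-RARa peak, and bars are exact 95% intervals; the share falls from the highest to the lowest scores in both lists, from 49.2% to 14.4% in PML-RARa and from 91.0% to 70.3% in HOXA9.

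Peaks shared by PML-RARa and HOXA9 were mostly peaks that the other libraries listed too. Of the 497 PML-RARa peaks with a HOXA9 partner, 366 (73.6%, interval 69.5 to 77.5) were also listed in non-transduced cells and 393 (79.1%, interval 75.2 to 82.6) in MLL-AF9 cells. Of the 1275 without a HOXA9 partner, 488 (38.3%, interval 35.6 to 41.0) and 508 (39.8%, interval 37.1 to 42.6) were. Peaks with a partner were also wider, and whether these shares differed apart from width was not tested. Among the 443 best PML-RARa peaks alone, 83.9% of those with a HOXA9 partner (interval 78.4 to 88.6) and 55.1% of those without (interval 48.4 to 61.7) were in the non-transduced list. Of the 497 PML-RARa peaks with a HOXA9 partner, 57 met no peak of the non-transduced and MLL-AF9 libraries. Of the 1275 without a HOXA9 partner, 580 were listed in no other library. Of the 122 HOXA9 peaks without a PML-RARa partner, 46 were in no other list (37.7%, interval 29.1 to 46.9), 29 in MLL-AF9 alone and 17 in the non-transduced library alone.

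**Figure D2:**
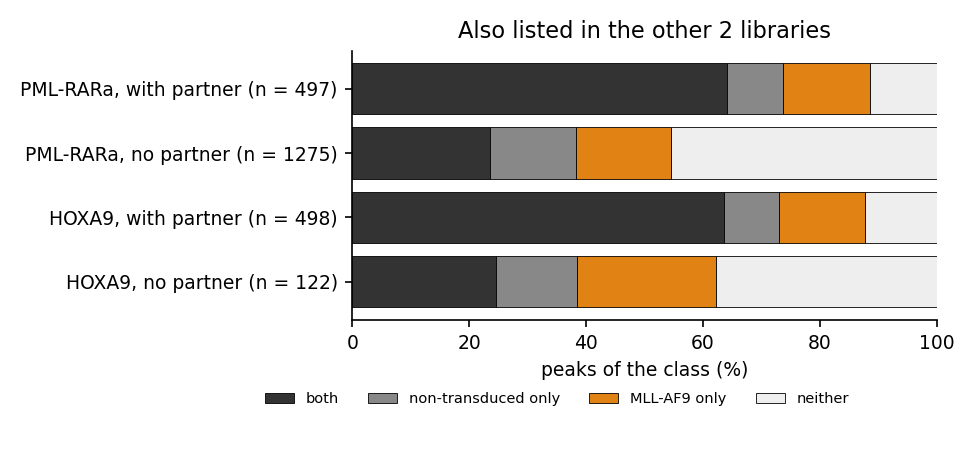
Share of peaks of each class (horizontal axis, %) that were also listed in both, 1 or neither of the non-transduced and MLL-AF9 libraries, for peaks with and without a partner in the PML-RARa and HOXA9 comparison. Peaks with a partner were in both other libraries in 64.2% of cases for PML-RARa and 63.7% for HOXA9, against 23.6% and 24.6% without a partner.

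Where the 2 libraries shared a domain, the widths lay within 1.5 times of each other in most one-to-one pairs. There were 453 one-to-one pairs, in which a peak of each list met the other and nothing else. The PML-RARa peak was the wider in 285 (62.9%, interval 58.3 to 67.4) and the HOXA9 peak in 168. The median ratio of the PML-RARa to the HOXA9 width was 1.08 (order-statistic 95% interval 1.05 to 1.14), with quartiles of 0.894 and 1.55. The PML-RARa peak was wider by more than 1.5 times in 124 pairs (27.4%) and narrower by more than 1.5 times in 50 (11.0%), and 279 lay between. The extremes reached 7.52 and 0.117.

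The median ratio lay above 1 in each size class of pair. It was 1.20 (interval 1.03 to 1.48) in the 59 pairs with a geometric mean width under 10 kb, 1.10 (interval 1.03 to 1.18) in the 178 pairs of 10 to 20 kb and 1.06 (interval 1.01 to 1.11) in the 216 pairs of 20 kb or more. Pairs that the non-transduced library also marked had a ratio of 1.10 (330 pairs, interval 1.05 to 1.18). The 123 pairs it did not mark had a ratio of 1.03 (interval 0.970 to 1.10). These intervals overlap, and the difference was not tested. All intervals of the width ratio cover only the spread over pairs, as if each pair were independent. With 1 library per group they do not measure a difference between the groups. Across the 453 pairs the widths had a Spearman correlation of 0.63 and the scores one of 0.18; these are descriptions across regions of the same libraries.

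**Figure D3:**
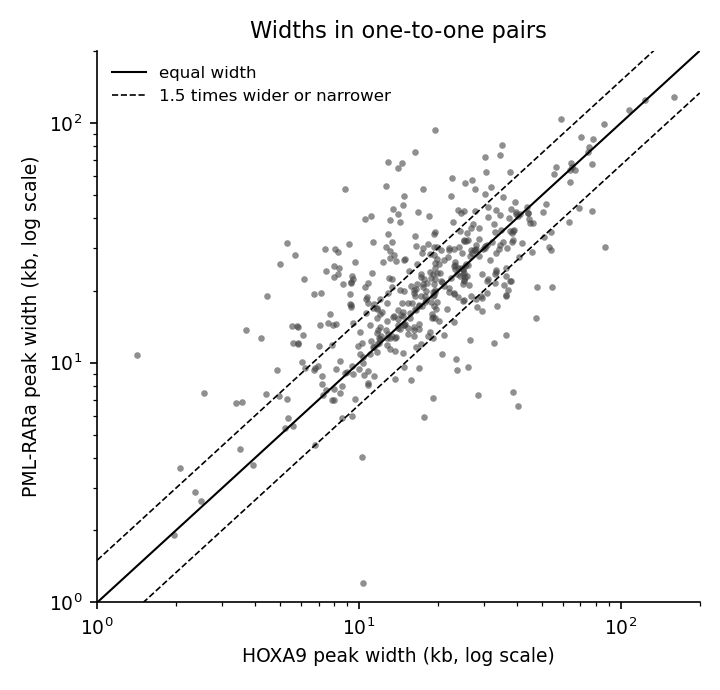
Width of the PML-RARa peak (vertical axis, kb, log scale) against that of the HOXA9 peak (horizontal axis, kb, log scale) in the 453 one-to-one pairs; each point is a pair. The solid line marks equal width and the dashed lines a difference of 1.5 times; 124 points lie above the upper dashed line and 50 below the lower one.

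Many paired domains shared an end to within 500 bp. The left ends lay within 500 bp of each other in 142 pairs and the right ends in 121, at least 1 end in 213 and both in 50. The median distance was 2.11 kb between left ends and 2.37 kb between right ends. The PML-RARa peak reached further at the left end in 283 pairs and at the right end in 276, so neither side stood out. In 188 pairs the HOXA9 peak lay wholly inside the PML-RARa peak and in 79 the reverse. No pair shared less than 52.5% of its shorter peak. Domains split in 1 library and whole in the other were few: 16 PML-RARa peaks met 2 HOXA9 peaks, 13 HOXA9 peaks met 2 PML-RARa peaks and 1 met 3. The widest PML-RARa peak of the whole list, 173.9 kb at chr6:89252610-89426491, enclosed HOXA9 peaks of 26.4 and 46.9 kb. A PML-RARa peak of 139.4 kb at chr8:114223107-114362539 met HOXA9 peaks of 94.8 and 62.8 kb. The latter lay wholly inside it, with right ends 1 bp apart. A PML-RARa peak of 85.3 kb at chr10:77708039-77793305 met HOXA9 peaks of 46.5 and 26.1 kb. In the other direction a HOXA9 peak of 46.6 kb at chr7:25910637-25957270 met PML-RARa peaks of 35.0, 17.8 and 27.7 kb. HOXA9 peaks of 70.3 kb at chr11:115162916-115233190 and 55.1 kb at chr2:164745945-164801009 met 2 PML-RARa peaks each.

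**Figure D4:**
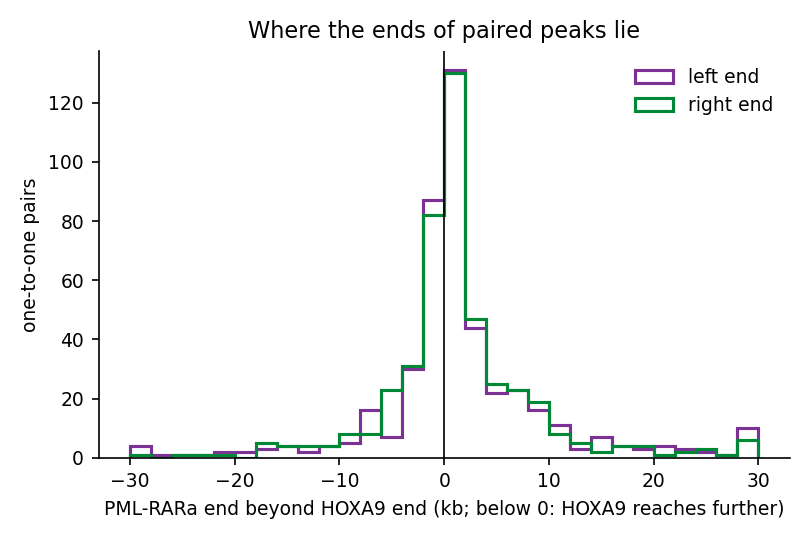
Distance by which the PML-RARa peak reached beyond the HOXA9 peak at its left and right end (horizontal axis, kb, values below 0 where HOXA9 reached further) in the 453 one-to-one pairs (vertical axis, number of pairs). Both distributions are centred near 0, with medians of 0.216 kb on the left and 0.345 kb on the right; ends more than 30 kb apart are drawn in the outermost bins.

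The Hox clusters, classical PRC1 targets, held both shared and unshared domains. The positions below are on mm9, counted from 1; the genes that lie there are given from general knowledge of the mouse map, as an annotation of this build was not used here. HoxA, whose member Hoxa9 is the mouse counterpart of the transduced gene, was marked in both libraries. The PML-RARa peak at chr6:52142117-52210269 was 68.2 kb wide (score 1880) and the HOXA9 peak at chr6:52145743-52210289 was 64.5 kb wide (score 1459). Their right ends were 20 bp apart. A neighbouring pair began 55 bp apart, at 52211210 in PML-RARa and 52211155 in HOXA9, and was 21.1 and 26.3 kb wide. A more distant pair ended 38 bp apart, at 52279806 and 52279768. A PML-RARa peak of 14.6 kb between these (chr6:52238399-52252997, score 751) had no HOXA9 partner. HOXA9 peak number 732 was missing at just this place, between number 731 and number 733, so an unlisted HOXA9 call may lie there.

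HoxD and HoxC were marked in both libraries as well. At HoxD the main domain was 65.5 kb in PML-RARa (chr2:74491905-74557368, score 1957) and 65.3 kb in HOXA9 (chr2:74491985-74557292, score 1008). Its ends were 80 bp apart on the left and 76 bp on the right. A PML-RARa peak of 10.3 kb beside it (chr2:74480556-74490867, score 751) had no HOXA9 partner, and 1 HOXA9 number was missing around the cluster. At HoxC the HOXA9 peak was the widest of its list, 159.9 kb at chr15:102742683-102902590. The PML-RARa peak there was 128.6 kb at chr15:102745718-102874297, and the HOXA9 peak reached 28.3 kb further to the right.

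HoxB was the exception: no HOXA9 peak was listed anywhere in the cluster, and PML-RARa had 3 peaks covering 143.8 kb. These were 47.0 kb at chr11:96024303-96071260 (score 928), 85.7 kb at chr11:96110826-96196529 (score 1522) and 11.2 kb at chr11:96209830-96221000 (score 1022). The 85.7 kb peak was among the 5 widest PML-RARa peaks without a HOXA9 partner. Non-transduced cells had 5 peaks there, covering 139.3 kb, and MLL-AF9 cells 3, covering 113.2 kb. The nearest listed HOXA9 peaks ended at 95870786 and began at 96868604. Between them 2 HOXA9 numbers were missing, so up to 2 unlisted HOXA9 calls may lie in or near HoxB, and absence from the list does not show absence of the mark.

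**Figure D5:**
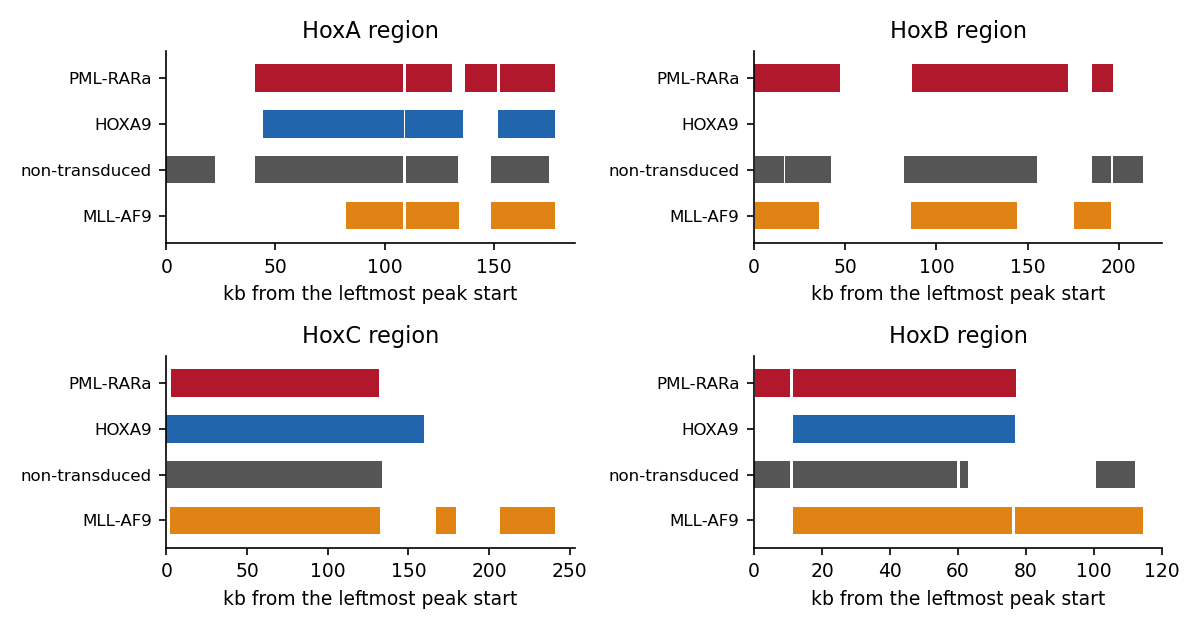
Listed H2AK119Ub peaks (bars) at the HoxA, HoxB, HoxC and HoxD regions in the 4 libraries; the horizontal axis is the distance in kb from the leftmost peak start of each region. HOXA9 has bars at HoxA, HoxC and HoxD and none at HoxB, where PML-RARa has 3.

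Pairs with high score ranks in both lists differed in how closely their ends lay. The pair with the best mean score rank lay at the Mapk12, Mapk11 and Plxnb2 locus, where the PML-RARa peak at chr15:88954187-89041315 was 87.1 kb and the HOXA9 peak at chr15:88954392-89024583 was 70.2 kb; the left ends were 0.205 kb and the right ends 16.7 kb apart. At Tbx2 and Tbx4, T-box factors of limb and heart development, the PML-RARa peak was 41.8 kb (chr11:85624043-85665881) and the HOXA9 peak 39.7 kb (chr11:85627585-85667244), with the highest score of the HOXA9 list (1736). A further pair at this locus was 30.5 kb in PML-RARa (chr11:85695224-85725712) and 24.2 kb in HOXA9 (chr11:85693668-85717826), with right ends 7.89 kb apart. At Dlx1 and Dlx2, homeobox genes of forebrain neurons, they were 39.8 kb (chr2:71357789-71397578) and 44.5 kb (chr2:71355681-71400161). The remaining pair of the best 5 besides HoxA spanned 124.6 kb in PML-RARa and 123.8 kb in HOXA9 at chr15:78453070-78577668, and its ends differed by 0.32 and 0.498 kb.

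Elsewhere the peaks of a locus differed between the lists in division or in number. These loci and the self-renewal loci described after them were chosen after their values were seen. At Wnt1 and Wnt10b, genes of secreted WNT ligands, a single PML-RARa peak of 54.7 kb (chr15:98587466-98642154) stood over 2 HOXA9 peaks of 9.46 and 27.1 kb. At Tlx1 and Lbx1, homeobox genes of spleen and muscle precursors, PML-RARa had 5 peaks (141.5 kb covered) and HOXA9 3 (137.5 kb). Each of the 3 HOXA9 peaks formed a one-to-one pair with a PML-RARa peak. The other PML-RARa peaks, 8.17 kb at chr19:45113738-45121906 and 13.9 kb at chr19:45150394-45164331, had no HOXA9 partner. No HOXA9 number was missing around this locus. At the Foxq1, Foxf2 and Foxc1 forkhead cluster, the PML-RARa library had peaks of 21.3 kb at chr13:31704180-31725523 and 22.0 kb at chr13:31887158-31909125. HOXA9 had only the second, and it was wider there (30.8 kb, chr13:31884656-31915437). Around this cluster 1 HOXA9 number was missing.

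Self-renewal regulators of haematopoietic cells were marked alike at some loci and unlike at others. At Meis1, a homeobox partner of HOXA9, PML-RARa had a peak of 13.7 kb with a score of 1845 (chr11:18769242-18782980) and another of 23.2 kb (chr11:18906186-18929349, score 1060). HOXA9 had a single peak of 3.69 kb, inside the former (chr11:18773728-18777414, score 766). No HOXA9 number was missing between the listed HOXA9 peaks on either side, so no numbered HOXA9 call was left out at the latter. Neither the non-transduced nor the MLL-AF9 list held a peak there. At Mecom, a zinc finger factor of stem cells, both lists held a peak of similar extent, 13.7 kb in PML-RARa (chr3:30402473-30416211) and 16.2 kb in HOXA9 (chr3:30402154-30418382), and again neither of the other lists did.

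At Gata2, a factor needed for stem cell survival, the central peak was nearly identical in PML-RARa (24.6 kb, chr6:88135853-88160492) and HOXA9 (25.0 kb, chr6:88135795-88160830), with left ends 58 bp and right ends 338 bp apart. The flanks differed. The peak on its left was 62.3 kb in PML-RARa and 30.5 kb in HOXA9, with left ends 265 bp apart, and the PML-RARa peak on its right (44.9 kb, chr6:88161811-88206681) had no HOXA9 partner. Around this locus 2 HOXA9 numbers were missing. At Prdm16, a regulator of stem cell maintenance, neither list held a peak over the gene, whereas the non-transduced and MLL-AF9 lists had peaks of 22.4 kb (chr4:153995939-154018295) and 13.1 kb (chr4:154005256-154018346). No PML-RARa number and 1 HOXA9 number was missing there.

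The pairs with the largest difference in width were of both kinds. Among the 434 pairs with both peaks of at least 5 kb, the PML-RARa peak exceeded the HOXA9 peak most at chr3:88296623-88349796, with 53.2 against 8.82 kb, a ratio of 6.03. Next were chr10:61430015-61461553, with 31.5 against 5.31 kb, and chr5:122437046-122505479, with 68.4 against 12.8 kb. The other members of the top 5 were 25.7 against 5.002 kb at chr11:116080678-116106373 and 28.1 against 5.72 kb at chr3:107974920-108003004. In all 5 the HOXA9 peak lay wholly inside the PML-RARa peak.

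The HOXA9 peak exceeded the PML-RARa peak most at chr4:148924008-148964533, with 40.5 against 6.6 kb, a ratio of 0.163. At chr8:124236578-124275178 it was 38.6 against 7.55 kb and at chr9:42724149-42752496 it was 28.3 against 7.33 kb. The right ends at the chromosome 9 site were 0.072 kb apart, and the HOXA9 peak reached 21.1 kb further to the left. At chr4:117077105-117124370 and chr1:57023234-57040986 the HOXA9 peaks spanned 47.3 and 17.8 kb, against 15.3 and 5.92 kb in PML-RARa.

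PML-RARa peaks without a HOXA9 partner included some of the best of their list, but an unlisted HOXA9 call may lie at each of the 5 highest. The missing HOXA9 numbers at these, from the highest score down, were 6, 3, 2, 1 and 1, and of the 225 unpartnered peaks among the best 443 only 66 lay where none was missing. The highest scores were 2443 at chr17:36364104-36372105 (8.002 kb), which no other library listed, and 2144 at chr12:113914314-113921772 (7.46 kb). Scores of 2070 at chr11:118902649-118924812 and 1942 at chr2:27269309-27288615 belonged to peaks that the non-transduced and MLL-AF9 libraries listed too. A peak with a score of 1975 at chr19:54119046-54130029 was 7717 kb from the nearest HOXA9 peak. The widest was 153.7 kb at chr18:38833427-38987095, only 17.3 kb from a HOXA9 peak, and no HOXA9 number was missing there. The PML-RARa peak just before it, chr18:38719466-38832603, did have a HOXA9 partner (113.1 against 107.7 kb), so the widest peak adjoined a shared domain. The next widest were 133.1 kb at chr11:61409992-61543099, 2.90 kb from a HOXA9 peak, 116.3 kb at chr8:108465291-108581544 and 97.0 kb at chr9:69867471-69964420. A PML-RARa peak shortly before the one on chromosome 11, chr11:61396680-61407197, also had a HOXA9 partner. At the peaks on chromosomes 11, 8 and 9 the missing HOXA9 numbers were 1, 2 and 1.

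In the best 155 of the HOXA9 list 91.0% of peaks had a PML-RARa partner, against 80.3% of all 620. Of the 122 HOXA9 peaks without a PML-RARa partner, 14 were among those best 155. The highest score, 1315 at chr9:64980230-64999220, and the next, 1215 at chrX:137529289-137533728, belonged to peaks that both other libraries listed. The peaks at chr16:90827351-90840574 (score 1197) and chr7:35431912-35445613 (score 1118) were in HOXA9 alone, and the one at chr9:119472397-119492268 (score 1118) was in both other lists. The widest spanned 63.3 kb at chr4:150160725-150224022 and 63.3 kb at chr11:81791608-81854858, both also marked in MLL-AF9 and not in non-transduced cells. The next were 48.9 kb at chr2:165018149-165067093, 45.9 kb at chr1:74812692-74858626 and 45.4 kb at chr11:107911097-107956508. An unlisted PML-RARa call may lie at most of these: 2 PML-RARa numbers were missing at each of the 4 autosomal peaks with the highest scores, and 2, 1, 2, 1 and 0 at the 5 widest. The chromosome X peak lay past the last listed PML-RARa peak, where missing numbers cannot be seen.

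Unpartnered peaks were seldom near misses. The median distance to the nearest peak of the other list was 448 kb for PML-RARa and 148 kb for HOXA9, whose counterpart list is longer. Within 10 kb lay 58 of the 1275 PML-RARa peaks (4.55%) and 13 of the 122 HOXA9 peaks (10.7%). For 454 of the 1275 (35.6%, interval 33.0 to 38.3) no HOXA9 number was missing at the place, so no numbered HOXA9 call had been left out. The other 821 lay where at least 1 of the 308 missing HOXA9 numbers could have been. For HOXA9 peaks, no PML-RARa number was missing at 47 of 122 (38.5%, interval 29.9 to 47.8).

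Over the 19 autosomes the matched share of PML-RARa peaks ranged from 18.7% on chromosome 17 (17 of 91, interval 11.3 to 28.2) to 41.3% on chromosome 3 (26 of 63, interval 29.0 to 54.4). The ratio of listed PML-RARa to HOXA9 peaks was 3.96 on chromosome 17 and 2.03 on chromosome 3. Both chromosomes were named as the extremes of the 19. On both, as many HOXA9 as PML-RARa peaks were matched, so for a given HOXA9 share the PML-RARa share falls as this ratio rises. The matched share of HOXA9 peaks was 73.9% on chromosome 17 (17 of 23, interval 51.6 to 89.8). On chromosome 3 it was 83.9% (26 of 31, interval 66.3 to 94.5), and these intervals overlap. Chromosome X had 6 PML-RARa and 2 HOXA9 peaks, with 1 pair.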

How the data were processed

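ChIP-seq used an H2AK119Ub antibody on chromatin fixed with 1% formaldehyde and sheared to an average of 200 to 300 bp, per the labels' protocols. Alignment and peak calling involved Bowtie and MACS2 on mm9, per the submitters' processing notes; their versions and settings, and whether the input served as control, are not stated there. The authors deposited a headerless list per library with position, name and a score of unstated scale for each peak. No reads were counted here, so depth is unknown. Deposited positions were read as BED and are printed counting from 1.

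Peaks matched when they shared at least 1 bp. Shares have Clopper-Pearson 95% intervals and medians order-statistic intervals. For equal length, PML-RARa peaks were ranked by score, with ties taken by position. Peaks may be missing from a list: where numbers in peak names skipped, an unlisted call was taken as possible between the listed neighbours.

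Named regions were the 5 pairs with the best mean score rank and the 5 widest and 5 narrowest by width ratio. Also named were each list's 5 best and 5 widest unpartnered peaks, its 3 peaks over most others, and the Hox clusters. The other 9 loci were chosen after their values were seen. Among these, the Tbx2 and Tbx4 locus and the Dlx1 and Dlx2 locus also held pairs of the best 5 by mean score rank. The members and lists were chosen with earlier results of these data known. The gene table at hand is of another assembly, so gene lists planned by gene start were not counted. Alternatives were stricter score lists, other overlap rules, merging of near peaks and autosomes alone. The overlap code recovered every partner in simulated lists. Software was Python 3.11.15 with scipy 1.17.1, pandas 2.3.3, numpy 2.4.6 and, for plots, matplotlib 3.10.9.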

Additional observations from a re-analysis of the deposited data

How the results depend on the processing

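Of 34 alternative values, 25 stayed within the 95% interval set for the main value, 9 moved beyond it and 0 reversed. All 9 came from shorter lists. For the shares of covered length, which are reported without an interval, a binomial one was used as if the share were a count of peaks. It measures no error of a length, so for these shares the labels are only a rough guide. With the upper 75% of each list by score, 74.0% of HOXA9 peaks met a PML-RARa peak, 25.9% of PML-RARa peaks met a HOXA9 peak, and 67.0% of the HOXA9 length was shared. With the upper 50% these values were 66.8%, 23.3% and 61.8%, and 23.2% of the PML-RARa length was shared. With the better 50% of the HOXA9 list against as many best PML-RARa peaks, 32.3% of PML-RARa and 33.2% of HOXA9 peaks had a partner. The median width ratio ranged from 1.05 to 1.10 over its 6 alternatives, and its interval reached 0.998 with the upper 50% by score. No paired analysis was possible because each group had 1 library, and for the same reason no library could be left out. Unknown depth limits every absence of a peak.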
